A study of Mus musculus with 4 samples.

Results

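The 10 genes described here mark the endothelial cells that line blood vessels of the brain. They were chosen by name, as Cldn5, Cdh5, Pecam1, Flt1, Kdr, Tek, Emcn, Vwf, Slc2a1 and Abcb1a, by a rule that uses no measured value but was written with earlier results of these data known. Each was represented by 1 detected probe matched through a RefSeq accession, with 1 spot per array. All 10 of these probes were well above background on all 4 arrays. Probes without such an accession were not searched for these genes. The 10 genes stand among 16794 named genes that were tested. The data come from 4 Agilent mouse arrays of 1 colour, which carried RNA of the dorsal hippocampus of female mice, collected once behavioural testing was over. The control group held 2 samples (replicates 2 and 3), and the group with a 20-fold iodine intake held 2 samples (replicates 2 and 3). The labels used here give the sex and the tissue of both groups but no strain, age or duration of intake, and they do not say that the replicates came from separate animals, so the errors and p-values below rest on spread that may be purely technical. The study is about excess iodine and the developing brain, and the comparison asks whether these genes differed in hippocampus after excess iodine.

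Endothelial cells of the brain form the blood-brain barrier. Claudin-5 and other tight junction proteins seal the gaps between neighbouring cells, VE-cadherin holds them together at adherens junctions, and carriers such as the glucose transporter GLUT1 and the efflux pump P-glycoprotein decide which small molecules cross. Vessel growth and upkeep depend on vascular endothelial growth factor (VEGF) acting on its receptors and on angiopoietins acting on the receptor TIE2. Thyroid hormone, for which iodine is the raw material, enters the brain largely across this barrier through carrier proteins, among them the one encoded by Slco1c1. A whole piece of hippocampus contains few endothelial cells among many neurons and glia, and in such bulk RNA fewer cells of a type and less RNA per cell cannot be told apart.

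None of the 10 genes passed the adjusted threshold of 0.05 in limma's fit over 38231 probes, where 0 probes (0%) passed and 3448 (9.02%) had an unadjusted p under 0.05. Of all probes 25 passed with normexp background correction and 53 with an intensity trend and robust variances, none of them a member. By their means 7 of the 10 were higher with iodine and 3 lower. In 6 of the 10 the groups' arrays did not overlap, with Cldn5, Kdr, Emcn, Pecam1 and Flt1 higher on both iodine arrays and Abcb1a lower. Of all named genes 39.9% had groups that did not overlap, 17.9% with iodine higher and 21.9% with iodine lower. The split over all named genes was 13.9% higher and 27.0% lower when arrays were scaled to the median of detected probes. It was 22.6% higher and 19.1% lower with normexp background correction, and 27.6% and 18.1% without the filter on dim probes. Which direction was the more frequent over all genes thus depended on the processing. In each of these settings the same 6 members were apart in the same directions. Kdr and Emcn had an unadjusted p under 0.05, both higher with iodine, as did 3.48% of all named genes. Which members fell under 0.05 varied with the setting. Emcn had an unadjusted p of 0.054 with scaling to the median of detected probes, and Cldn5 0.030 with normexp background correction (limma). Kdr was under 0.05 in both. The members' median log2 difference, 20-fold iodine minus control, was 0.08, beside -0.01 over all named genes, and their differences ran from -0.35 for Vwf to 0.60 for Cldn5. Without 20-fold iodine replicate 2 the members' median was 0.27, and without 20-fold iodine replicate 3 it was -0.01.

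**Figure D1:**
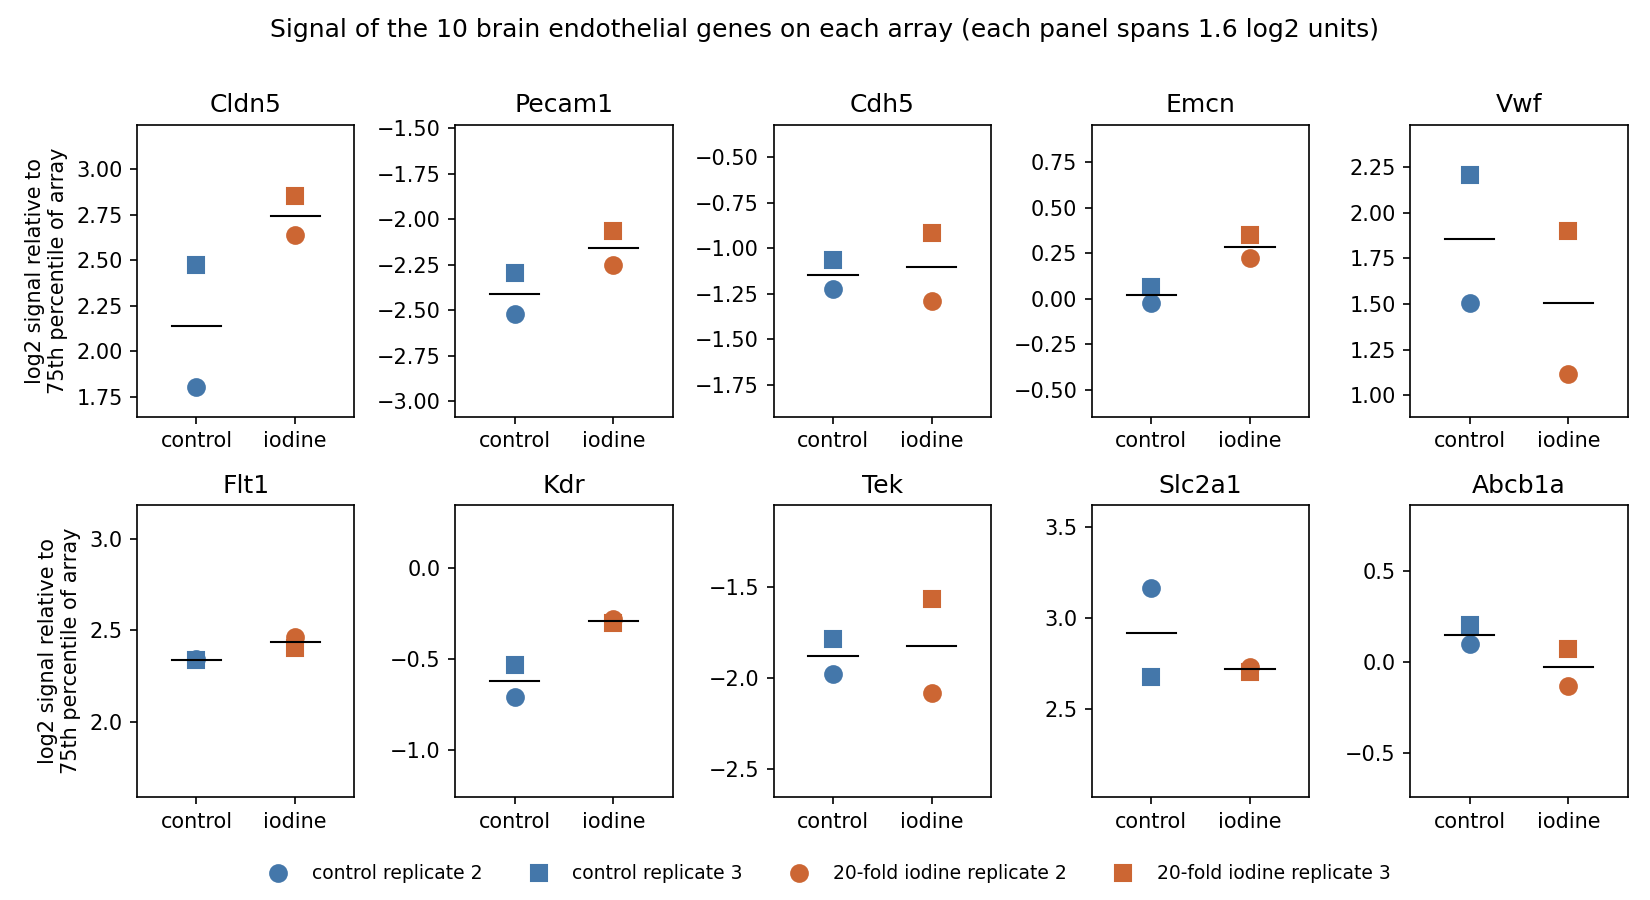
Log2 signal of each of the 10 genes on each array, relative to the 75th percentile of that array (y axis, 1.6 log2 units in every panel), for control (blue) and 20-fold iodine (orange), with replicate 2 as circles, replicate 3 as squares and group means as bars. Cldn5 ran from 1.80 to 2.47 in controls and from 2.64 to 2.85 with iodine, while the iodine arrays of Vwf, at 1.12 and 1.90, spread as widely as its control arrays.

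The stretches before the start sites of 4 members are shown because these 4 include the 3 genes with the highest differences and the member that was lower without overlap. RefSeq promoters on build GRCm38.p6 were matched by symbol for 7 of the 10 genes. The 250 bases before the annotated start lie at chr16:18776597-18776846 (plus strand) for Cldn5, chr5:75978456-75978705 (minus strand) for Kdr, chr3:137340828-137341077 (plus strand) for Emcn and chr5:8566841-8567090 (plus strand) for Abcb1a. Capitals mark matches, on either strand, to AGGAAG (the core of sites for ETS factors such as ERG and FLI1, which drive endothelial genes), AACAAT (a core of SOX factor sites) or AGGTCA (the half-site of thyroid hormone and other nuclear receptors), and no 2 matches overlapped.
Cldn5: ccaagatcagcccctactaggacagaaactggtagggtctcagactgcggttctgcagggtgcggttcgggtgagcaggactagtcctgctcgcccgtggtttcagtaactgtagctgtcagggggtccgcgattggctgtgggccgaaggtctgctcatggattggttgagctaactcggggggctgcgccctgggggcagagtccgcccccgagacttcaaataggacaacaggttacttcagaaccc
Kdr: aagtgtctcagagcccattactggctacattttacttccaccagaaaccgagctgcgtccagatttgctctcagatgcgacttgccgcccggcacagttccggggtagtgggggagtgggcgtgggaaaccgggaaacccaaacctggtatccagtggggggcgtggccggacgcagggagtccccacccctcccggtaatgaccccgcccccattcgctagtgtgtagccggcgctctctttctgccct
Emcn: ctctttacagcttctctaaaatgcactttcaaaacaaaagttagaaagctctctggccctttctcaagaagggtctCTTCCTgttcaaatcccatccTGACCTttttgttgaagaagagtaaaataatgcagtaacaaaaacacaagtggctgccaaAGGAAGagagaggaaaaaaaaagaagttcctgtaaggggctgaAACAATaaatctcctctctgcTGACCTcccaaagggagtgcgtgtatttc
Abcb1a: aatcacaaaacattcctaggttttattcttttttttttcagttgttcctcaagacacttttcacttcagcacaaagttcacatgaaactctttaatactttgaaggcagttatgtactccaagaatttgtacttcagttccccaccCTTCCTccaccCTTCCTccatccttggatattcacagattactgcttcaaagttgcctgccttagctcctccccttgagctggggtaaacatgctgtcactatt
AGGAAG was found 2 times before Emcn and 2 times before Abcb1a, and it occurs in the same window of 29.5% of 32851 mouse promoters. Emcn also held AACAAT 1 time, as 9.42% of promoters do, and AGGTCA 2 times, as 14% do at least once. The direct repeat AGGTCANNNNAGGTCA, the arrangement preferred by thyroid hormone receptors, was found before none of the 7 members and in 0.0152% of promoters. Cldn5 and Kdr held no exact match to these strings in this window, and ETS cores with other flanks were not counted. Of the members whose promoters are not printed, Flt1 held AGGAAG 2 times, Tek held AACAAT 1 time and Slc2a1 held no match. Letters in a promoter describe the sequence and are not evidence of binding.

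Of the junction genes, Cldn5 had the highest difference of the 10 members. It encodes claudin-5, the main claudin of the blood-brain barrier. Its log2 signal, relative to the array's 75th percentile as for every signal given here, was 1.80 and 2.47 in control replicates 2 and 3 and 2.64 and 2.85 in 20-fold iodine replicates 2 and 3. Both iodine arrays lay above both controls, yet control replicate 3 was closer to the iodine arrays than to the other control, with a gap of 0.67 between the controls and 0.21 between the iodine arrays. The difference was 0.60 ± 0.25 (SE, n = 2 per group), a 1.52-fold signal with a 95% confidence interval from 0.943 to 2.45, and it did not pass (limma, adjusted p = 0.586). Its pooled SD within groups, 0.35, was larger than that of 92.8% of probes. The difference was 0.27 without control replicate 2 and 0.94 without control replicate 3, so its size moves with the choice of controls.

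Cdh5 encodes VE-cadherin, which joins endothelial cells at adherens junctions. Control replicates 2 and 3 gave log2 signals of -1.23 and -1.07, and iodine replicates 2 and 3 gave -1.29 and -0.92. The iodine arrays enclosed both controls, and the difference was 0.05 (95% confidence interval -0.39 to 0.48). It turned to -0.03 when control replicate 2 and to -0.14 when 20-fold iodine replicate 3 was left out. Pecam1 encodes CD31, an adhesion molecule at endothelial contacts that platelets and some white cells also carry. The control log2 signals were -2.52 in replicate 2 and -2.30 in replicate 3, and those with iodine were -2.25 and -2.06. The groups lay apart by a narrow margin, and the difference of 0.25 ± 0.13 (SE, n = 2 per group) had an interval from -0.09 to 0.59 (limma, adjusted p = 0.635). Pecam1 was the dimmest member, with processed signals from 27.7 to 34.5, and its difference shrank to 0.12 with normexp background correction. That setting adds an offset of 50 to every signal, which by itself shrinks log2 differences of dim probes.

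The VEGF receptor genes were both higher on the iodine arrays, by small amounts. Kdr encodes VEGFR2, the receptor that passes on most of the VEGF signal, and its log2 signals were -0.71 and -0.54 in control replicates 2 and 3 and -0.28 and -0.30 in iodine replicates 2 and 3. The groups were separated by more than the gap within either, which was 0.18 in controls and 0.02 with iodine. Its difference of 0.33 ± 0.10 (SE, n = 2 per group), a 1.26-fold signal with an interval from 1.05 to 1.51, had the smallest p of the members (limma, unadjusted p = 0.025, adjusted p = 0.533). Over 11 alternatives that difference lay between 0.22 and 0.42.

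Flt1 encodes VEGFR1, which binds VEGF tightly and also exists as a soluble form that traps it. Both controls read 2.34 on the log2 scale, iodine replicate 2 read 2.46 and iodine replicate 3 read 2.40, the most even values of the 10 genes. Although the groups did not overlap, the difference was 0.10 (95% confidence interval -0.12 to 0.31, limma adjusted p = 0.760). Its pooled SD within groups was 0.03, larger than that of 7.71% of probes, so the interval is set mostly by the spread that limma borrows from other probes.

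Tek encodes TIE2, the receptor of the angiopoietins. Log2 signals of Tek were -1.98 and -1.79 in control replicates 2 and 3 and -2.08 and -1.57 in iodine replicates 2 and 3. The iodine arrays again enclosed the controls, and the difference of 0.06 had an interval from -0.50 to 0.61. Leaving out control replicate 2 gave -0.04, and leaving out 20-fold iodine replicate 3 gave -0.20. For these 3 receptors the data therefore show no call, with Kdr alone having an interval that lay above 0.

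Emcn encodes endomucin, a sialomucin on the surface of capillary and venous endothelium. On the log2 scale it read -0.02 and 0.06 in control replicates 2 and 3 and 0.22 and 0.35 in iodine replicates 2 and 3. All were close within their group, and the difference was 0.27 ± 0.09 (SE, n = 2 per group), a 1.20-fold signal with an interval from 1.01 to 1.43 (limma, unadjusted p = 0.043, adjusted p = 0.545). It was 0.17 with normexp background correction and 0.33 without 20-fold iodine replicate 2, the ends of its range over 11 alternatives.

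Vwf encodes von Willebrand factor, the clotting protein stored in endothelial granules and most abundant in veins and larger vessels. Signals on the log2 scale were 1.50 and 2.21 in control replicates 2 and 3 and 1.12 and 1.90 in iodine replicates 2 and 3. Replicate 3 was the brighter array in both groups, by 0.70 and 0.78, and these gaps were wider than the difference between groups, -0.35 (95% confidence interval -1.35 to 0.66). Its pooled SD of 0.53 exceeded that of 97.6% of probes, the widest spread of the 10 genes. Leaving out control replicate 3 brought the difference to 0.0036 and leaving out 20-fold iodine replicate 2 to 0.04, whereas it was -0.70 when control replicate 2 and -0.74 when 20-fold iodine replicate 3 was left out.

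Both transporter genes had lower means with iodine. Slc2a1 encodes GLUT1, through which glucose crosses the barrier, and astrocytes carry it too. The log2 signals of Slc2a1 were 3.16 and 2.67 in control replicates 2 and 3 and 2.73 and 2.70 in iodine replicates 2 and 3. Control replicate 2 alone stood high, and the other control lay below both iodine arrays. The difference of -0.20 (95% confidence interval -0.70 to 0.30) became 0.04 without control replicate 2.

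Abcb1a encodes the P-glycoprotein of brain capillaries, which pumps drugs and other lipophilic molecules back into the blood. Its log2 signals were 0.10 and 0.20 in control replicates 2 and 3 and -0.13 and 0.07 in iodine replicates 2 and 3. The brighter iodine array, at 0.07, lay just below the dimmer control, at 0.10, and the difference was -0.18 ± 0.11 (SE, n = 2 per group, limma adjusted p = 0.686). It was -0.08 without 20-fold iodine replicate 2 and -0.28 without 20-fold iodine replicate 3. Abcb1b, a close paralog that is less abundant in brain capillaries, differed by -0.02 ± 0.09 (SE), with overlapping groups. Probe sequences were not used here, so whether either probe also binds the other gene's RNA was not examined.

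**Figure D2:**
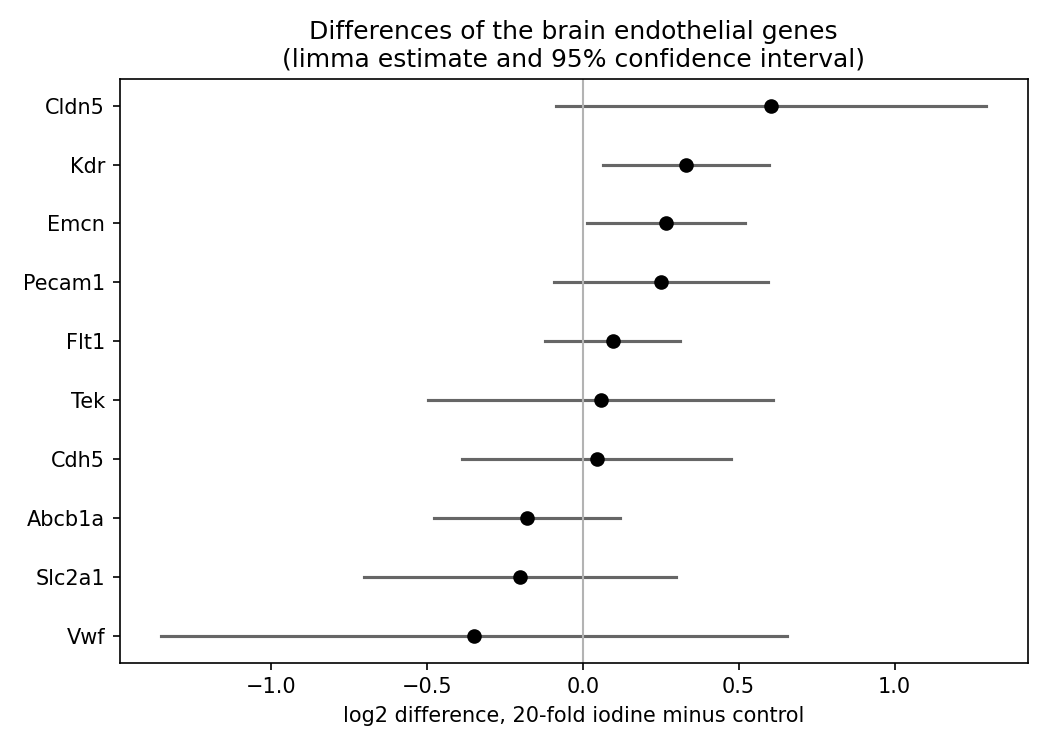
Log2 difference, 20-fold iodine minus control, of each gene (points) with its 95% confidence interval from limma (lines), on 2 arrays per group. Only the intervals of Kdr (0.07 to 0.60) and Emcn (0.01 to 0.52) exclude 0, without adjustment for the number of probes, and that of Vwf is the widest, from -1.35 to 0.66.

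**Figure D3:**
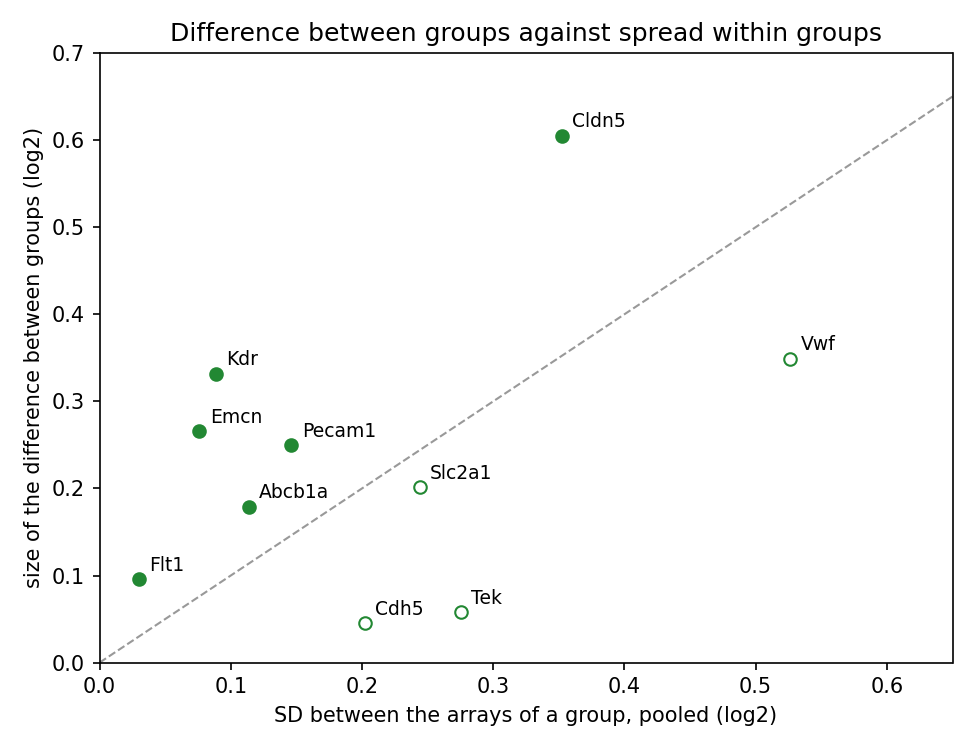
Size of the difference between groups (y axis, log2) against the pooled SD between the 2 arrays of a group (x axis, log2) for the 10 genes, with filled points where the groups did not overlap, open points where they did, and a dashed line where both are equal. The 6 filled points lie above the line, as any gene with groups that do not overlap must with 2 arrays per group. Vwf, Slc2a1, Tek and Cdh5 lie below it.

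The members did not share 1 pattern across the arrays, but the 2 arrays of a group were ordered alike in most of them. Control replicate 3 was brighter than control replicate 2 in 8 of the 10, iodine replicate 3 was brighter than iodine replicate 2 in 7, and both held in 7, namely Cldn5, Cdh5, Pecam1, Tek, Emcn, Vwf and Abcb1a. Of all named genes 50.6% had the first order, 43.1% the second and 21.7% both. Over the 10 genes the median deviation from the 4-array mean was -0.15 and 0.01 in control replicates 2 and 3 and -0.03 and 0.20 in iodine replicates 2 and 3. Iodine replicate 3 was thus the array highest for the members as a group, and control replicate 2 the lowest.

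**Figure D4:**
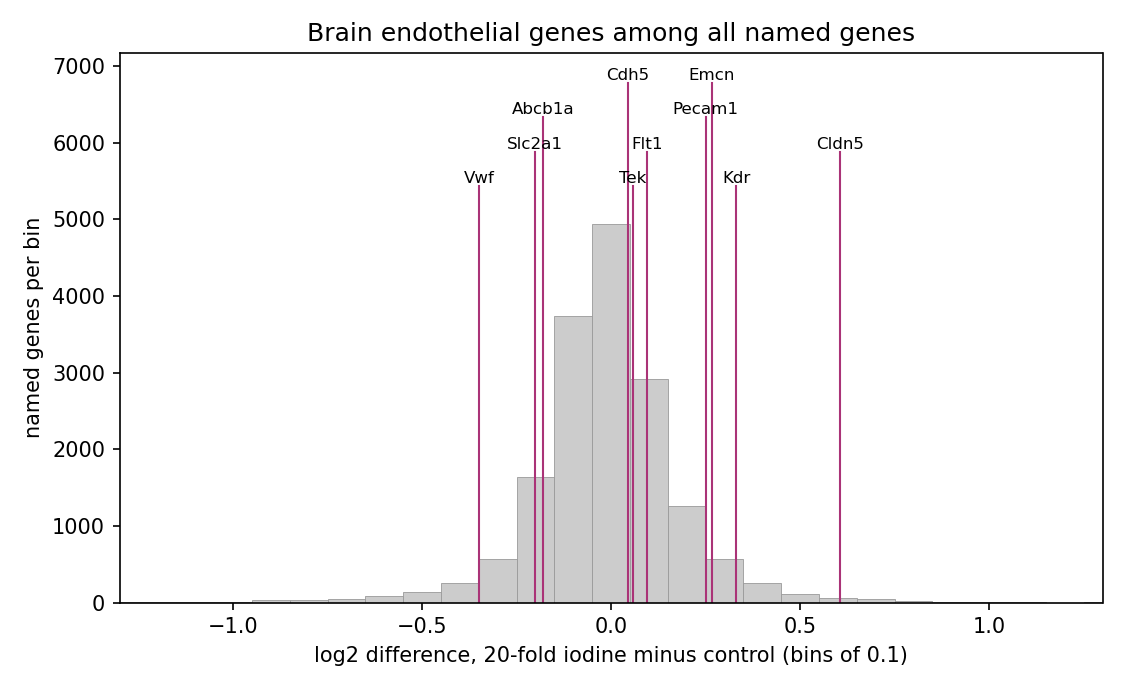
Number of named genes per bin of 0.1 in the log2 difference, 20-fold iodine minus control (grey bars, 16794 genes, of which those beyond 1.3 in either direction are not drawn), with a line at the value of each of the 10 brain endothelial genes (heights of the lines are for legibility only). Cldn5, at 0.60, lies above 98.9% of probes, and the other 9 genes lie between -0.35 and 0.33.

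Markers of tissue next to the hippocampus varied on the same arrays. For 10 of 10 choroid plexus markers, all well above background on all arrays, the median deviation was 0.24 and 0.12 in control replicates 2 and 3 and -1.248 and 0.938 in iodine replicates 2 and 3. Their summed signal, in multiples of each array's 75th percentile, ranged from 194 to 217 in controls and from 80.3 to 343 with iodine. For 11 of 11 fibroblast markers of vessels and meninges the deviations were -0.01, 0.31, -0.62 and 0.35 in the same order, and the summed signal was 28.2 to 35.0 in controls and 19.9 to 32.6 with iodine. By these deviations both lists were lowest on iodine replicate 2 and highest on iodine replicate 3, and Vwf, Tek, Cdh5 and Abcb1a were also lowest on iodine replicate 2. Of 6 red blood cell markers 4 were tested, with deviations of -0.41, 0.27, 0.02 and 0.11 and summed signals of 68.7 to 94.0 in controls and 87.3 to 90.2 with iodine, lowest on control replicate 2 as Cldn5, Kdr, Emcn and Pecam1 were. The part of these tissues in the members' values was not tested. All 10 hippocampal neuron markers, such as Prox1 and Neurod6, were well above background on all arrays, with summed signals of 199 to 238 in controls and 193 to 229 with iodine.

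Other genes linked to the endothelium were counted in 7 lists, and 0 genes in any of them passed limma's adjusted threshold. In this bulk RNA their signal may also come from other cells, and the part from endothelium was not tested. Their counts without overlap stand beside shares over all named genes of 17.9% higher and 21.9% lower. Junction and adhesion genes had a median log2 difference of 0.004 over 15 genes, 4 higher and 3 lower without overlap. Jam2, a junctional adhesion molecule, stood at -0.35 ± 0.08 (SE) and Mcam, the adhesion molecule CD146 of endothelium and pericytes, at 0.29 ± 0.09. The highest difference among them, 0.30, was that of F11r, a junctional adhesion molecule named after its value was seen, beside 0.60 for Cldn5. Blood-brain barrier transporters had a median of -0.05 over 16 genes, 5 with a positive and 11 with a negative difference. Of these, 2 were higher and 4 lower without overlap. Mfsd2a, which carries an omega-3 fatty acid into the brain and restrains transcytosis, had -0.41 ± 0.16, and Insr, the insulin receptor, 0.49 ± 0.10 (limma, adjusted p = 0.518). Slco1c1, a carrier of thyroid hormone, differed by 0.06 with overlapping groups, and was named for that role after its value was seen.

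In VEGF and angiopoietin signalling 16 of 18 genes were tested, with a median of 0.01, 6 higher and 1 lower without overlap. Vegfa, the main ligand of Kdr and Flt1, read 1.26 and 1.24 on the log2 scale in control replicates 2 and 3 and 0.997 and 1.251 in iodine replicates 2 and 3. Only iodine replicate 2 stood low, the difference was -0.13 ± 0.12 (SE), and its other probes gave -0.34 to 0.29. Angpt1, the activating ligand of the Tek product, had overlapping groups and -0.04 ± 0.21. Angpt2, a ligand that endothelial cells release and that can oppose Angpt1, read -0.92 and -0.74 in control and -0.51 and -0.45 in iodine replicates 2 and 3, a difference of 0.35 ± 0.10 (limma, unadjusted p = 0.023, adjusted p = 0.533). Nrp2, a co-receptor, stood at 0.27 ± 0.11, with other probes from -0.04 to 0.40. The other 2 genes of the list, Flt4 and Aplnr, were too dim to be tested.

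Endothelial transcription factors had a median of 0.02 over 16 genes, 5 higher and 3 lower without overlap. Ets1, a factor of the ETS family, had 0.47 ± 0.08 (SE) with another probe at 0.12, and Foxq1, a forkhead factor of brain endothelium, 0.49 ± 0.12 (limma, adjusted p = 0.518 and 0.522). Genes of arteries and veins had a median of -0.12 over 10 genes, 1 higher and 3 lower without overlap. The arterial gene Sema3g stood at 0.51 ± 0.13 and the venous factor Nr2f2 at -0.29 ± 0.12. Activation genes had -0.12 over 8 of 10 genes, 1 higher and 2 lower without overlap, with Icam1 and Sele too dim to be tested. Among them Selp, the adhesion molecule P-selectin, had -0.18 ± 0.08. General endothelial genes had -0.10 over 13 genes, 2 higher and 4 lower without overlap, with Adgrl4 at -0.36 ± 0.13, another probe of it at 0.09, and Ctla2a at -0.20 ± 0.08. The medians of these last 3 lists and of the blood-brain barrier transporters lay below 0. Those of the junction, VEGF and transcription factor lists were 0.004, 0.01 and 0.02, beside 0.08 for the 10 members. The difference between lists was not tested.

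Marker lists of other cells and tissues had medians from -0.37 to 0.15. Mural cell markers, from pericytes and smooth muscle, had a median of 0.07 over 14 genes, 8 with a positive and 6 with a negative difference, from -0.66 to 0.30. Of these, 8 were higher and 0 lower without overlap, where 17.9% of all named genes were higher and 21.9% lower. The pericyte genes Pdgfrb and Kcnj8 stood at 0.30 ± 0.11 (SE) and 0.26 ± 0.10. Astrocyte markers had -0.08 over 10 genes, 3 higher and 5 lower without overlap. Gfap stood at 0.29 ± 0.09, with another probe at 0.55 ± 0.08. Gjb6, the gap junction gene of connexin 30, stood at -0.41 ± 0.14, with another probe at -0.49. Microglia and macrophage markers had 0.00 over 9 genes, with P2ry12 at -0.24 ± 0.10 and Cd163 at -0.58 ± 0.28. Fibroblast markers had -0.28, with Pdgfra at -0.19 ± 0.09 and Dcn at -0.35 ± 0.22, and choroid plexus markers -0.37, with Folr1 at -0.51 ± 0.64 and Kcnj13 at -0.61 ± 0.86. Red blood cell markers had 0.15 over 4 genes, with Hba-a1 at 0.15 ± 0.16 and Alas2 at 0.16 ± 0.28. Hippocampal neuron markers had 0.01 over 10 genes, 6 with a positive and 4 with a negative difference, from -0.14 to 0.40, with the transporter gene Slc17a7 at 0.40 ± 0.09 and Fibcd1, a gene of CA1 neurons, at 0.17 ± 0.11. The adjusted p of all genes named in this paragraph was 0.518 or more (limma), so none of them passed.

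**Figure D5:**
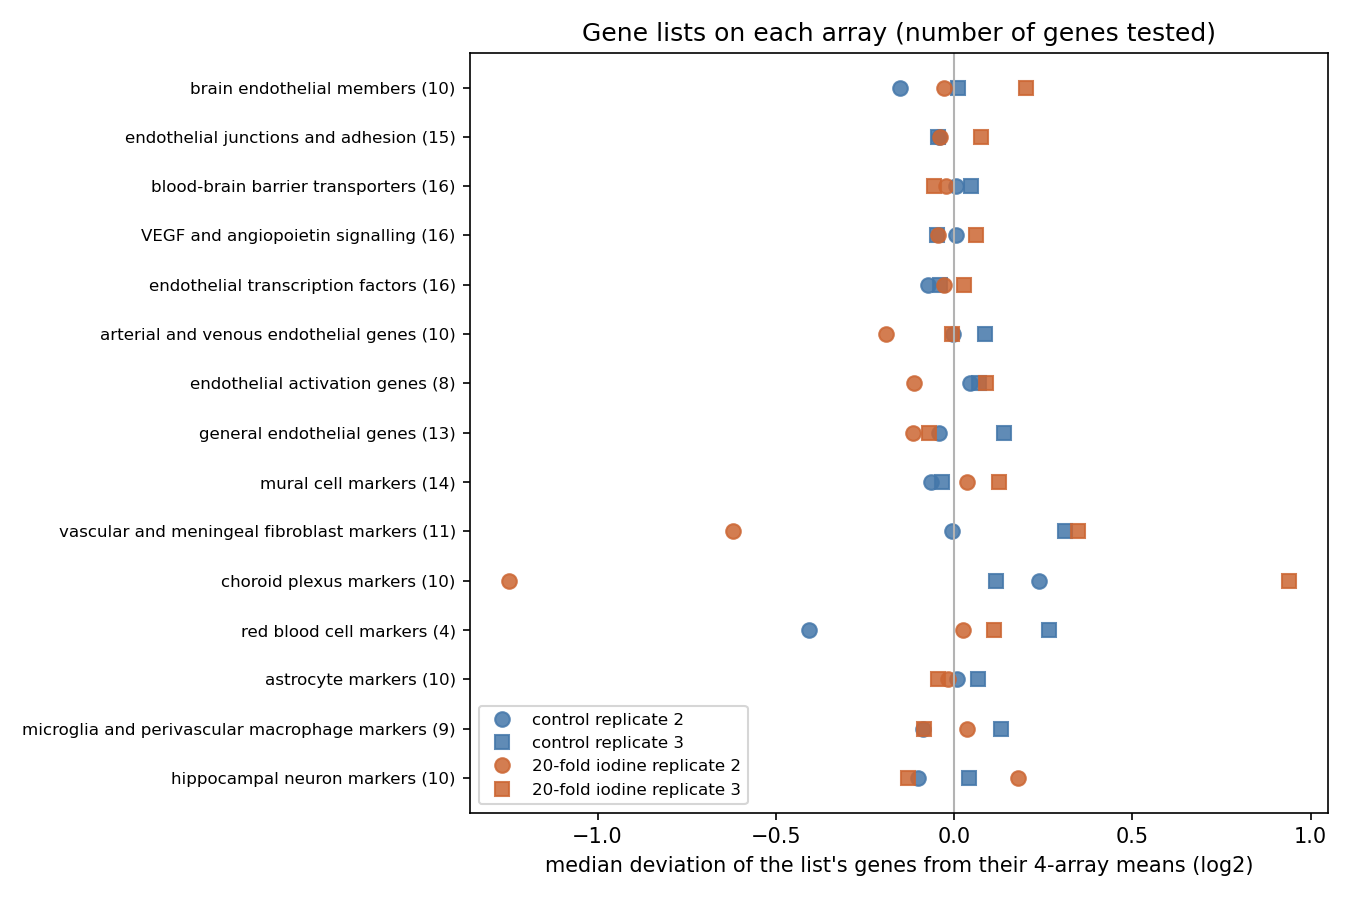
Median deviation of each list's genes from their means over the 4 arrays (x axis, log2) on each array, with control in blue, 20-fold iodine in orange, replicate 2 as circles and replicate 3 as squares, and the number of genes tested beside each list. The brain endothelial genes lie between -0.15 and 0.20, while choroid plexus markers on the iodine arrays lie at -1.248 and 0.938.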

How the data were processed

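RNA of dorsal hippocampus was labelled with Cy3 and hybridised to 4 arrays of 1 slide, scanned together. Controls occupied slide columns 1 and 2 and iodine samples columns 3 and 4, so position and group cannot be told apart. Per the file headers the scanner output was made with Feature Extraction (version 12.1.1.1). From it the processed signal was taken, a deposited intensity that was background-subtracted and detrended within each array and not normalized between arrays. Each array had 37535 to 37921 of 56605 probes well above background, and 0 saturated spots. Feature Extraction gave the members' signals an error of 10.0 to 10.6%. Precision is limited by 2 arrays per group, and the part of this signal error in the spread was not tested.

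Spots of a probe were averaged without outlier spots on the log2 scale, the array's 75th percentile was subtracted, and 38231 probes were kept, each well above background on 2 or more of the 4 arrays. Probes were named through RefSeq accessions on GRCm38.p6 (32994 probes of 22911 genes matched). The headers name an older build, so probe coordinates were left out. A gene with several probes was represented by its brightest. The comparison was fitted with limma 3.58.1 in R 4.3.3 (version 1.17.8 of the data.table package), two-sided, with Benjamini-Hochberg adjustment over all kept probes, and the fit was tested on simulated data. Plots used matplotlib 3.10.9 in Python 3.11.15. Alternatives changed the background correction, normalization, filter, variance model, probe choice and arrays. Slide could not be a block. Named were all 10 members, the 2 genes of every other list with the smallest unadjusted p, their probes of other sign, and Abcb1b, Vegfa, Angpt1 and Angpt2, and 1 gene that this rule names is not reported here. The members and lists were chosen with earlier results of these data known. Replicates 2 and 3 of the groups did not deviate together (r = -0.02 over probes).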

Additional observations from a re-analysis of the deposited data

How the results depend on the processing

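No probe passed in limma's fit or in any alternative fitted by probe other than 2. The smallest adjusted p was 0.518 in limma's fit, with 3448 probes at an unadjusted p under 0.05, and 0.329 to 0.667 in the alternatives without a call. Of all probes, 25 passed with normexp background correction and 53 with an intensity trend and robust variances, none of them a member. With the replicate number as a block 0 passed (smallest adjusted p = 0.622), and the block changed no call. It did move unadjusted p of members in both directions (limma). That of Vwf went from 0.396 to 0.028 and that of Cldn5 from 0.072 to 0.025. Emcn went from 0.043 to 0.054 and Kdr from 0.025 to 0.045. With 1 array left out, the fit takes the spread of the lone array from the other group. In these fits 0 probes passed, the members' median ranged from -0.0077 to 0.27 and 7 to 9 members did not overlap, as did 66.6 to 73.4% of all named genes. The members whose direction reversed without 1 array were Tek (-0.20 to 0.32, at -0.04 without control replicate 2), Cdh5 (-0.14 to 0.23, at -0.03 without control replicate 2), Slc2a1 (-0.45 to 0.042) and Vwf (-0.74 to 0.042, at 0.0036 without control replicate 3). The other 6 members kept their direction under all 11 alternatives for single genes. Most of these alternatives could not have changed it. Groups that do not overlap keep their direction when 1 array is left out. The filter, variance and block settings left the members' differences unchanged. Only the background correction and the 2 other normalizations could have reversed these 6. Medians of the other lists moved by more than the spread between arrays in 18 cases, all of them without 1 array. The cause of these changes was not tested. With 2 arrays against 2, an exact permutation test of 1 gene cannot go below p = 0.33.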
